A study of Homo sapiens with 9 samples.

Results

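The core circadian clock genes were read in 9 RNA-seq libraries of MDA-MB-453, a human breast cancer cell line that the labels give as triple-negative. The genes were chosen by symbol, and not by a threshold on their values, as 10 of the 59452 gene symbols or identifiers in the count table: *CLOCK*, *ARNTL*, *PER2*, *PER3*, *CRY1*, *CRY2*, *DBP*, *NR1D1*, *BHLHE40* and *BHLHE41*. Earlier results of these data were known when they were chosen. Each condition had 3 libraries, taken at 48 hours from cells of wild-type genotype. The attached, vehicle-treated cells grew on ordinary plates with DMSO, vehicle-treated suspended cells were kept from attaching by poly-HEMA and also received DMSO, and suspended cells with AT0174 received this dual TDO2/IDO1 inhibitor at 10 µM on poly-HEMA plates. The comparisons ask what loss of attachment changed, and what the inhibitor changed in cells without attachment. The sources used here give the cultures as biological triplicates of a single cell line, and they name neither a time of day nor a synchronizing step. A library is therefore 1 point in time, and the values are levels, not phases or amplitudes of a rhythm.

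Total estimated counts ran from 36649997 to 48019126 per library, and all 10 genes passed the filter on low counts that left 15528 genes for testing. All 7 luminal and apocrine markers read (*FOXA1*, *SPDEF*, *XBP1*, *KRT8*, *KRT18*, *KRT19*, *EPCAM*) were at 1 TPM or more (transcript abundance scaled to length and depth by Salmon) in every library. Their summed level was 4564 to 4863 TPM in attached cells, 5615 to 5736 TPM in vehicle-treated suspended cells and 5363 to 5856 TPM with AT0174, and its part in the differences below was not tested. The basal markers *KRT5* and *KRT14* reached at most 3 counts, while *TP63* read 2.7 to 3.7 TPM. Of the fibroblast markers, *COL1A1* read 51.5 to 66.1 TPM, but *COL1A2* and *PDGFRB* reached at most 8 counts and *DCN* had none. Of the leukocyte markers, *CD3E* had 0 counts and *PTPRC* at most 2, with *CD68* at up to 4.63 TPM. The endothelial markers *PECAM1* and *CDH5* summed to at most 0.129 TPM.

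As background, the clock is a transcriptional feedback loop that runs in nearly every cell. CLOCK and BMAL1, the product of *ARNTL*, pair and activate genes through E-boxes. PER and CRY proteins accumulate, enter the nucleus and repress that pair. NR1D1, also called REV-ERBα, represses *ARNTL* through ROR elements, and DBP activates genes through D-boxes. BHLHE40 and BHLHE41, also called DEC1 and DEC2, bind E-boxes and repress the same targets, and *BHLHE40* is also known to respond to hypoxia and growth signals.

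Because the loop is written in short DNA elements, the reference promoters are shown first for the members that carry one. RefSeq windows on GRCh38, from 250 bases before to 50 bases after each annotated start, were found for all 10 members, 14 windows in all. They were searched on both strands for the E-box CACGTG, for the D-box as TTATGTAA, TTACATAA or TTACGTAA, and for the core of the ROR element as AGGTCA or TGACCT. The E-box was in 2 of the 14 windows and in 7.26% of all 35116 promoter windows, the D-box in 2 and in 1.01%, and the ROR core in 3 and in 13.8%. The E-box was in the windows of *BHLHE40* and *BHLHE41*. The 250 bases before their starts are printed with the E-box in capitals, which begins 245 bases before the start of *BHLHE40* (chr3:4979187-4979436, plus strand) and 48 bases before that of *BHLHE41* (chr12:26125038-26125287, minus strand).
BHLHE40: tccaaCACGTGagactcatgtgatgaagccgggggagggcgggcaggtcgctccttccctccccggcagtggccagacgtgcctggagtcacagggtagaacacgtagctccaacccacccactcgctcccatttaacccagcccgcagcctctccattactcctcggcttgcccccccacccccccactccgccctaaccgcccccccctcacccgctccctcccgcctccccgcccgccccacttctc
BHLHE41: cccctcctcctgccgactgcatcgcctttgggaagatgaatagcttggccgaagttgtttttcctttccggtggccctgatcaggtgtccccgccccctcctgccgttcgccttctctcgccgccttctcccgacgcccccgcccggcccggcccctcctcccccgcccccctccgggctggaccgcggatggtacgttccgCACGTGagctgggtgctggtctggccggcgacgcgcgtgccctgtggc
The D-box began 3 bases before a RefSeq start of *PER2* that lies inside the longer annotated gene (chr2:238288594-238288625, minus strand), and 177 bases before a start of *PER3* (chr1:7784102-7784133, plus strand). Each is printed with 12 bases on either side and the D-box in capitals.
PER2: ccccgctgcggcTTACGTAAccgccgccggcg
PER3: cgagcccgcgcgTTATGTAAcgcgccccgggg
The ROR core, in capitals below, was at base 32 after a start of *ARNTL* (chr11:13277809-13277838, plus strand). It also began 62 and 64 bases before the 2 starts of *CRY2*, respectively (chr11:45847044-45847073 and chr11:45847399-45847428, plus strand).
ARNTL: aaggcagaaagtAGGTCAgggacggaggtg
CRY2, first start: gtgataataggaAGGTCAgctgtcagtctt
CRY2, second start: ttgcggcgtcatAGGTCActgggcgggcta
These matches describe the windows. No factor's binding was measured, and the windows of *CLOCK*, *CRY1*, *DBP* and *NR1D1* held none of these letters.

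Every member was expressed, and they differed widely in level. Levels between genes were compared as TPM summed over a gene's transcripts, which allows for length. *BHLHE40* was the highest member in each library, at 46.9 to 48.9 TPM in attached cells, 63.7 to 68.0 TPM in vehicle-treated suspended cells and 64.5 to 66.6 TPM with AT0174. Its lowest value in suspended cells was above its highest in attached cells. In attached cells *DBP* followed at 22.7 ± 3.15 TPM (SD, n = 3 here and below) and *PER3* at 18.7 ± 0.990 TPM, and their libraries overlapped. The place of *DBP* rests in part on short transcripts. DBP-202 and DBP-204, of 712 and 709 bases, held 43.1% and 19.9% of its TPM in attached cells. DBP-201, of 2170 bases, read 5.05 to 7.45 TPM there. *CLOCK* at 14.98 ± 1.62 TPM, *CRY1* at 14.5 ± 1.17 TPM and *PER2* at 13.3 ± 0.584 TPM came next with neighbours overlapping, and so did the libraries of *CRY2* at 9.10 ± 1.53 TPM and *ARNTL* at 7.82 ± 0.611 TPM. *BHLHE41* at 4.29 ± 0.406 TPM and *NR1D1* at 2.77 ± 0.432 TPM were lowest and did not overlap. This last order turned over in vehicle-treated suspended cells, where *NR1D1* read 3.4 to 3.66 TPM and *BHLHE41* 0.849 to 1.67 TPM, and the genes overlapped with AT0174. The coding transcript of *BHLHE41* alone read 0.860 to 1.14 TPM in attached and 0.761 to 0.849 TPM in vehicle-treated suspended cells, below *NR1D1* in both. The turn therefore comes from its short retained-intron transcripts, described further on.

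**Figure D1:**
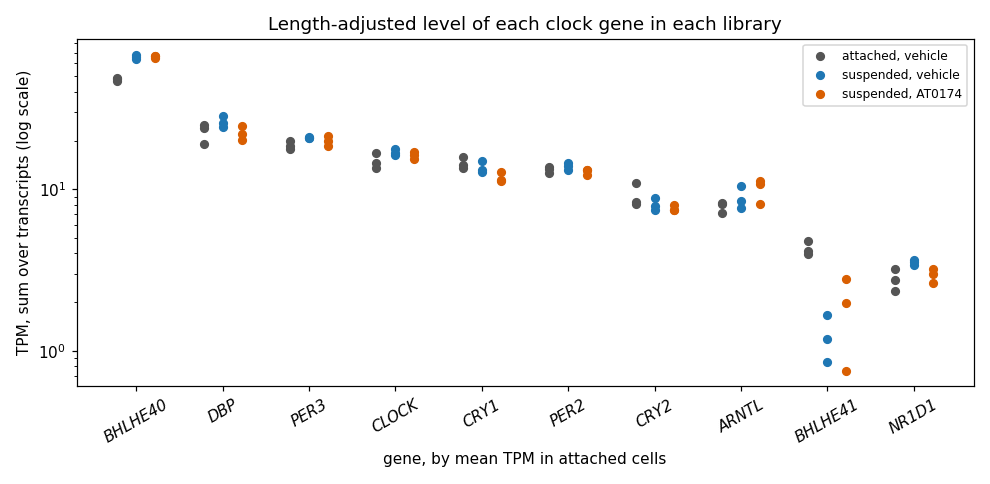
Level of each clock gene in each of the 9 libraries, as TPM summed over the gene's transcripts (log scale), with genes ordered by their mean in attached cells. *BHLHE40* lies above all others in every library, and *BHLHE41* drops from 3.99–4.75 TPM in attached cells to 0.754–2.77 TPM in suspended cells. The coding transcript of *BHLHE41* alone read 0.860–1.14 TPM in attached cells and 0.721–0.849 TPM in suspended cells.

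Paralogs kept their order, and the ratio changed most for *BHLHE40* and *BHLHE41*. The TPM ratio of *PER3* to *PER2* was 1.33 to 1.46 in attached cells, 1.41 to 1.56 in vehicle-treated suspended cells and 1.51 to 1.62 with AT0174. That of *CRY1* to *CRY2* was 1.248 to 1.886, 1.49 to 1.89 and 1.44 to 1.72. The ratio of *BHLHE40* to *BHLHE41*, by contrast, was 9.88 to 12.01 in attached cells and 40.7 to 75.0 in vehicle-treated suspended cells, and it spread from 24.0 to 85.5 with AT0174. These ratios carry no test, and the short *BHLHE41* transcripts described further on weigh heavily in the last.

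Suspension with vehicle against attachment with vehicle gave calls for 3 of the 10 members. *BHLHE40* rose by 24.9% and *CLOCK* by 10.7%, and *BHLHE41* fell by 34.9%, whereas *ARNTL*, the *PER* genes, *CRY1*, *CRY2*, *DBP* and *NR1D1* did not pass the test. A gene was called changed at a Benjamini–Hochberg adjusted p under 0.05 in the edgeR quasi-likelihood test, adjusted over all 15528 genes. By this rule 21.2% of all genes tested were called, 10.4% as higher and 10.8% as lower, beside 2 members higher and 1 lower. Libraries of the 2 conditions did not overlap for 5 members, against 38.1% of all genes. The median log2 fold change over the members was 0.06, beside 0.00 over all genes.

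Of the 2 activators, *CLOCK* was called with suspension and *ARNTL* was not. *CLOCK* (ENSG00000134852, chr4:55427903-55546909, minus strand), the histone acetyltransferase partner of BMAL1, read 65.5, 67.0 and 66.0 CPM (counts scaled to TMM-adjusted library sizes) in attached cells, 73.1, 76.7 and 70.0 in vehicle-treated suspended cells and 74.8, 68.1 and 71.5 with AT0174. Every suspended library was above every attached one. The log2 fold change with suspension was 0.15 ± 0.0438 (SE), with a 95% interval of 3.68% to 18.3% in percent change and an edgeR adjusted p of 0.0319. That call was lost in 5 of the 6 repeats that left out 1 library: without attached replicate 1, 2 or 3 (adjusted p = 0.0844, 0.0561 and 0.0828) and without suspended vehicle replicate 1 or 2 (0.057 and 0.117). It was also lost with counts rebuilt from TPM (0.08, adjusted p = 0.506) and with protein-coding transcripts only (0.11, adjusted p = 0.177). *ARNTL* (ENSG00000133794, named BMAL1 in the annotation, chr11:13276652-13387266, plus strand) read 11.1, 10.2 and 9.76 CPM in attached cells, 10.9, 10.6 and 11.5 in suspended cells and 9.59, 10.0 and 10.5 with AT0174. The groups overlapped between attached and suspended cells, at a log2 fold change of 0.09 (adjusted p = 0.426). When only protein-coding transcripts were counted, it rose by 0.60 on the log2 scale with suspension (adjusted p = 0.0101), so that value depends on how reads were shared among its 28 transcripts.

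None of the 4 *PER* and *CRY* repressors was called with suspension. Libraries overlapped for the *PER* genes and not for the *CRY* genes, which were lower in every suspended library, and whether the changes of the *PER* and *CRY* genes differ was not tested. *PER2* (ENSG00000132326, chr2:238244044-238290102, minus strand), a light- and hormone-inducible partner of the CRY proteins, read 57.5, 54.7 and 60.7 CPM in attached cells, 56.4, 58.5 and 53.7 in suspended cells and 55.1, 52.1 and 55.8 with AT0174. *PER3* (ENSG00000049246, chr1:7784291-7845177, plus strand) read 82.3, 80.5 and 77.9 CPM, then 84.8, 82.6 and 80.3, then 80.8, 78.5 and 85.7. Both overlapped in all 3 pairs of conditions. Their 95% intervals for the change with suspension ran from −9.36% to 4.83% for *PER2* (adjusted p = 0.637) and from −3.17% to 9.32% for *PER3* (adjusted p = 0.515).

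*CRY1* (ENSG00000008405, chr12:106991364-107093549, minus strand), the stronger repressor of the CRY pair in the textbook model, read 23.9, 23.6 and 23.2 CPM in attached cells, 21.6, 20.7 and 22.5 in suspended cells and 19.8, 20.3 and 20.6 with AT0174. The 3 conditions did not overlap, and attached cells were highest. With suspension alone its log2 fold change of −0.13 ± 0.0458 (SE) missed the threshold (adjusted p = 0.0661). *CRY2* (ENSG00000121671, chr11:45847118-45883248, plus strand) read 20.0, 21.3 and 25.96 CPM in attached cells, 19.0, 19.7 and 18.9 in suspended cells and 17.4, 19.2 and 17.4 with AT0174. Its attached libraries were all above the suspended ones, but replicate 3 stood well above the other two. The log2 fold change of −0.22 ± 0.0826 (SE) had an adjusted p of 0.0767. It was −0.10 without attached replicate 3 (adjusted p = 0.313) and −0.30 without attached replicate 1 (adjusted p = 0.0272).

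The clock-driven factors showed no called change. *DBP* (ENSG00000105516, chr19:48630030-48637379, minus strand), a PAR bZIP activator and a direct target of CLOCK and BMAL1, read 17.3, 20.0 and 18.3 CPM in attached cells, 19.3, 20.1 and 19.6 in suspended cells and 18.5, 19.3 and 18.8 with AT0174. *NR1D1* (ENSG00000126368, chr17:40092793-40100589, minus strand), the haem-binding repressor of *ARNTL*, was the least expressed member per length in attached cells and read 4.16, 5.73 and 5.05 CPM, then 6.02, 6.03 and 5.6, then 4.45, 5.26 and 5.46. Attached and suspended libraries overlapped for both genes. The change with suspension was 6.07% for *DBP* (interval −2.52% to 15.4%, adjusted p = 0.315) and 18.3% for *NR1D1* (interval −1.74% to 42.4%, adjusted p = 0.187). *NR1D1* had 159 to 266 counts per library, and the SD of its attached libraries was 15.8% of their mean CPM. What sets the width of its interval was not tested.

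The DEC repressors moved in opposite directions. *BHLHE40* (ENSG00000134107, chr3:4979437-4985323, plus strand) read 100.9, 103.0 and 102.3 CPM in attached cells, 126.3, 125.1 and 131.0 in suspended cells and 128.0, 134.9 and 131.4 with AT0174. The gap between attached and suspended libraries was several times the spread within either, at a log2 fold change of 0.32 ± 0.0324 (SE), an interval of 19.0% to 31.1% and an adjusted p of 6.46e-05. It was called under all 15 alternatives, at 0.29 to 0.37. *BHLHE41* (ENSG00000123095, chr12:26120030-26125037, minus strand) read 3.398, 2.85 and 2.96 CPM, then 2.09, 1.97 and 1.94, then 1.84, 2.20 and 2.22. Attached libraries were again clear of all suspended ones, and it was lower with suspension at a log2 fold change of −0.62 ± 0.143 (SE), an interval of −47.5% to −19.2% and an adjusted p of 0.0102. It rested on 81 to 130 counts per library, and the call was lost when only protein-coding transcripts were counted (−0.37, adjusted p = 0.149).

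**Figure D2:**
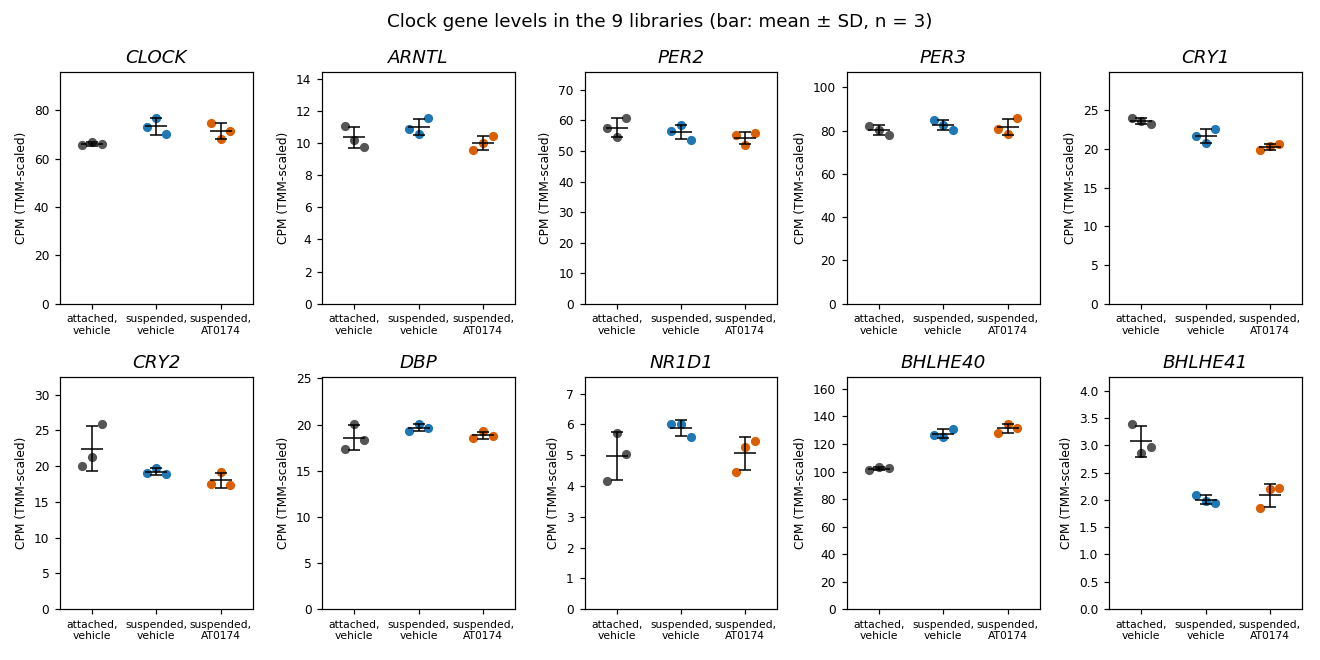
CPM of each clock gene on TMM-scaled library sizes, with 1 point per library and bars for the mean ± SD (n = 3), for vehicle-treated attached cells, vehicle-treated suspended cells and suspended cells with AT0174. *BHLHE40* is higher (102.1 ± 1.06, 127.5 ± 3.11 and 131.4 ± 3.43 CPM) and *BHLHE41* lower (3.07 ± 0.290, 2.00 ± 0.0827 and 2.09 ± 0.212 CPM) in both suspended conditions, and *PER3* stays near 80.2 to 82.6 CPM.

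Transcript estimates divided the *BHLHE41* difference between coding and retained-intron transcripts. The coding transcript BHLHE41-201, of 3743 bases, had 112.3, 81.3 and 89.0 estimated counts in attached cells, 81.0, 84.9 and 79.8 in vehicle-treated suspended cells and 89.0, 76.9 and 91.3 with AT0174. Scaled to depth it averaged 2.49 ± 0.385, 1.94 ± 0.139 and 1.92 ± 0.132 CPM, with every suspended library below every attached one. The retained-intron transcripts BHLHE41-202 and BHLHE41-203, of 350 and 438 bases, together had 17.7, 21.7 and 26.1 counts in attached cells, 0, 2.10 and 5.20 in vehicle-treated suspended cells and 0, 15.1 and 6.70 with AT0174. They averaged 0.578 ± 0.106 CPM in attached cells and 0.0553 ± 0.0596 CPM in vehicle-treated suspended cells. Being short, they weigh more per length, and the coding transcript made up 22.6% of the gene's TPM in attached cells, 71.3% in vehicle-treated suspended cells and 56.0% with AT0174. With counts rebuilt from TPM the log2 fold change with suspension was −1.89 in place of −0.62.

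**Figure D3:**
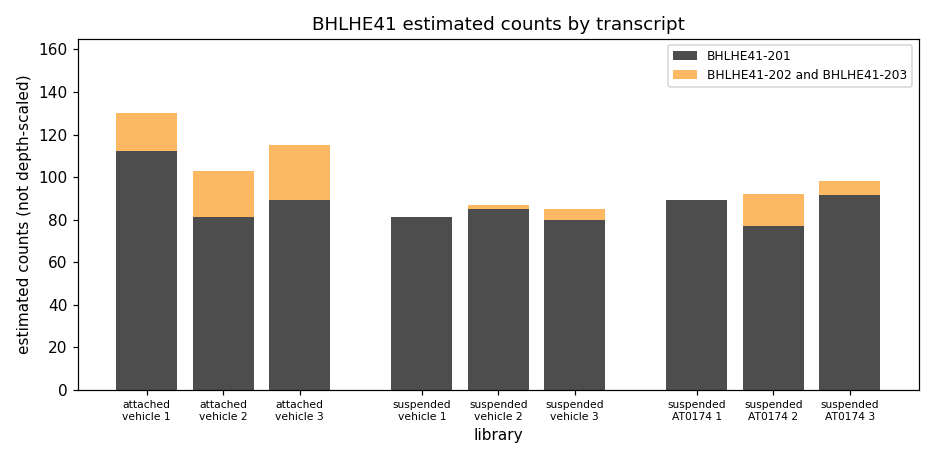
Estimated counts of *BHLHE41* in each library (not scaled to depth), with the coding transcript BHLHE41-201 as the dark bar and the retained-intron transcripts BHLHE41-202 and BHLHE41-203 stacked above it. The upper segment is 17.7 to 26.1 counts in attached libraries and 0 to 15.1 counts in suspended ones.

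Other members were read mainly from 1 transcript or from several coding ones. BHLHE40-201 made up 94.7% of its gene's TPM over the 9 libraries, PER2-201 96.4%, CRY2-211 75.8% and CRY1-201 73.2%, and *NR1D1* had a single transcript. *CLOCK* was shared among CLOCK-202 (39.6%), CLOCK-201 (25.9%) and CLOCK-211 (17.2%), and *PER3* among PER3-202 (48.6%), PER3-201 (25.3%) and PER3-209 (21.8%). *DBP* was spread over DBP-202 (42.9%), DBP-201 (28.1%), DBP-204 (15.1%) and DBP-205 (11.7%). *ARNTL* was the least settled, with BMAL1-205 at 27.7%, the retained-intron BMAL1-215 at 14.3% and BMAL1-201 at 10.4%, both of the last at 0 in attached replicate 1 and suspended vehicle replicate 1.

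AT0174 against vehicle, both in suspension, gave no call for any of the 10 members. By edgeR 0 were called and 0 had an unadjusted p under 0.05, and DESeq2 and limma-voom also called 0, beside 0.779% of all genes called by edgeR (0.522% higher and 0.258% lower). Log2 fold changes ran from −0.22 for *NR1D1* to 0.06 for *BHLHE41*, with adjusted p-values of 0.587 to 0.959. The median was −0.06, beside 0.00 over all genes.

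Libraries of the 2 conditions did not overlap for 4 members, beside 15.4% of all genes, a share that holds both directions. All 4 were lower in each AT0174 library than in each suspended vehicle library. The share of all genes that were lower in this way is not given here, and the members were not tested against it. They were *ARNTL*, *CRY1*, *DBP* and *NR1D1*, whose values are given above. The change was −8.88% for *ARNTL* (interval −18.0% to 1.2%), −6.32% for *CRY1* (−12.6% to 0.35%), −4.28% for *DBP* (−11.9% to 4.03%) and −14.1% for *NR1D1* (−28.5% to 3.117%), and all 4 intervals hold 0. For *ARNTL* the direction reversed with counts rebuilt from TPM, at a log2 fold change of 0.22. The bounds were narrow for the abundant members: *BHLHE40* lay between −1.74% and 8.17%, *CLOCK* between −8.58% and 4.13%, *PER2* between −10.03% and 3.98% and *PER3* between −6.84% and 5.08%. For *BHLHE41*, with few counts, the interval was wider, at −16.2% to 29.8%, and *CRY2* lay between −17.5% and 5.95%.

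Suspended cells with AT0174 against vehicle-treated attached cells differed in 4 members, and this comparison shares its libraries with both others and spans the change of culture and of treatment together. *BHLHE40* was higher by 28.8%, while the change was −14.3% for *CRY1*, −19.8% for *CRY2* and −32.1% for *BHLHE41*. All genes tested were called at 24.0%, with 12.2% higher and 11.8% lower, beside 1 member higher and 3 lower. Libraries did not overlap for 5 members and for 39.5% of all genes. The median log2 fold change was −0.01 over the members and 0.00 over all genes.

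*BHLHE40* had a log2 fold change of 0.36 ± 0.0324 (SE; adjusted p = 1.54e-05) and *CRY1* one of −0.22 ± 0.0458 (SE; adjusted p = 0.00453), and both were called under all 15 alternatives. *CRY2* at −0.32 ± 0.0827 (SE; adjusted p = 0.0152) was less firm: the call was lost without AT0174 replicate 1 or 3 (adjusted p = 0.0594 and 0.0524), as it was with counts rebuilt from TPM (0.0974), and the value was −0.20 without attached replicate 3 (0.0477). *BHLHE41* at −0.56 ± 0.142 (SE; adjusted p = 0.0138) lost the call without attached replicate 1 (adjusted p = 0.0541), without AT0174 replicate 1 (0.0655) and with protein-coding transcripts only (0.113). *CLOCK* was higher in each library, at 8.03% (interval 1.16% to 15.4%), but was not called (adjusted p = 0.0838). Side by side, *CRY1* was at −0.13 with suspension, −0.09 with AT0174 in suspension and −0.22 across both steps on the log2 scale, and *CRY2* at −0.22, −0.10 and −0.32. For both genes the last passed the test and the others did not, and whether these changes differ from each other was not tested. *PER2*, *PER3*, *ARNTL*, *DBP* and *NR1D1* had adjusted p-values of 0.227 to 0.919, and their libraries overlapped.

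**Figure D4:**
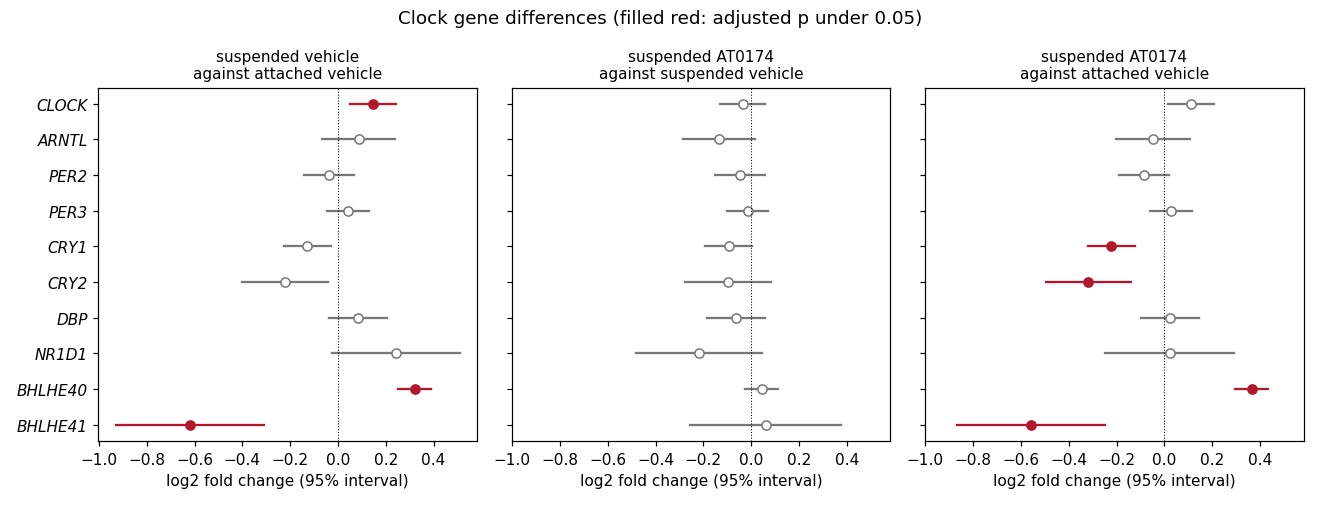
Log2 fold change of each clock gene with its 95% interval in the 3 comparisons, where filled red points have an edgeR adjusted p under 0.05. Suspension with vehicle has 3 such points, AT0174 in suspension has 0, and AT0174 in suspension against attached cells has 4.

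Further core factors gave 1 call in the 3 comparisons. Of 11 further core factors, 10 could be tested, and *RORB* had 0 counts in every library. None of the 10 was called with suspension by edgeR, with 1 at an unadjusted p under 0.05, and none with AT0174 in suspension, with 0 at that level, beside 21.2% and 0.779% of all genes called. Against attached cells 1 of the 10 was called with AT0174, with 4 at an unadjusted p under 0.05, beside 24.0% of all genes called. The median log2 fold changes were −0.01, −0.02 and −0.03 in the 3 comparisons, beside 0.00 over all genes in each. *PER1*, the paralog of *PER2* and *PER3*, averaged 29.3 ± 2.33 CPM in attached cells, 28.02 ± 2.07 in suspended cells and 25.6 ± 0.772 with AT0174. Its only call was in suspended AT0174 against attached cells, where it was lower (log2 fold change −0.19, adjusted p = 0.0463), and that call was lost in 5 of 6 repeats without 1 library (adjusted p up to 0.19). *NR1D2*, the REV-ERB paralog, was higher in every suspended vehicle library (23.1 ± 0.932 against 25.9 ± 1.95 CPM) but not called (adjusted p = 0.0566). *NPAS2*, which can stand in for CLOCK, and *ARNTL2*, the BMAL1 paralog, were low and not called in any comparison. The first averaged 0.709 to 1.08 CPM over the conditions and the second 0.730 to 0.732 CPM. *NPAS2* was higher in every AT0174 library than in every attached one (log2 fold change 0.61, edgeR adjusted p = 0.119), on 23 to 52 counts per library.

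Among kinases, ubiquitin ligases and cofactors of clock proteins, 23 of 25 were tested (*USP2* had at most 10 counts and *FBXL21* was not analysed here), and 3 were called higher and 2 lower with suspension. These 5 of 23 are near the 21.2% of all genes called, and the median log2 fold change was 0.02. *PRKAA2*, a catalytic subunit of AMPK that marks CRY1 for degradation, rose from 22.6 ± 1.45 to 29.2 ± 0.706 CPM (log2 fold change 0.37, adjusted p = 0.000735), which held in all 6 repeats without 1 library. *TIMELESS*, a replication fork protein that binds CRY, fell from 224.8 ± 3.26 to 204.9 ± 4.83 CPM (−0.13, adjusted p = 0.00757), also in 6 of 6. *CSNK2A1*, a subunit of casein kinase 2, and *WDR5*, of histone methyltransferase complexes, rose by 8.82% and 8.19% (held in 4 and 2 of 6), and *CSNK1E*, a PER kinase, fell by 9.89% (1 of 6). None of the 23 was called with AT0174 in suspension, where 3 had an unadjusted p under 0.05, beside 0.779% of all genes called and a median of −0.01. In that comparison *PRKAA2* was lower in every AT0174 library, at 25.5 ± 0.823 CPM (log2 fold change −0.20, edgeR adjusted p = 0.139). Against attached cells, 7 of 23 were called beside 24.0% of all genes, with a median of −0.01. The AT0174 libraries had *PRKAA2* (log2 fold change 0.17, held in 1 of 6), *CSNK2A1* and *WDR5* higher and 4 lower: *TIMELESS*, *CSNK1E*, the PER kinase *CSNK1D* (−9.05%, adjusted p = 0.0192) and the coactivator *CREBBP* (−10.9%, adjusted p = 0.0462). These 7 calls held in 1 to 5 of 6 repeats without 1 library, with adjusted p-values of at most 0.195.

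Of 13 genes known to follow the clock in many tissues, 12 were tested, again without *USP2*, of which *TEF*, *HLF* and *NFIL3* also belong to the core list. Calls numbered 2 with suspension, 1 with AT0174 in suspension and 4 for AT0174 against attached cells, beside 21.2%, 0.779% and 24.0% of all genes, and the medians were −0.02, −0.06 and −0.01 on the log2 scale. With suspension *TSPAN4*, a tetraspanin, fell from 62.5 ± 0.864 to 41.4 ± 2.78 CPM (log2 fold change −0.60, adjusted p = 1.79e-05) and *KLF9*, a Krüppel-like factor induced by glucocorticoids, rose from 9.90 ± 0.340 to 11.8 ± 0.421 CPM (0.25, adjusted p = 0.0167). The first held in 6 and the second in 4 of 6 repeats without 1 library. *ALAS1*, the first enzyme of haem synthesis, was the sole gene of the 3 lists called with AT0174 in suspension. It rose from 42.9 ± 1.51 to 52.2 ± 0.711 CPM (0.28, adjusted p = 0.0119), and the call was lost without suspended vehicle replicate 2 or 3 (adjusted p = 0.0725 and 0.0723) and without AT0174 replicate 1 or 3 (0.0631 and 0.061). Its value was 0.26 to 0.31 over the 6 repeats. Against attached cells, AT0174 libraries were higher for *ALAS1* (0.28) and lower for *TSPAN4* (−0.43), for *TSC22D3*, a glucocorticoid-induced leucine zipper (−0.28, adjusted p = 0.00721), and for *DTX4*, a ubiquitin ligase of the Deltex family (−0.28, adjusted p = 0.0357). The first 3 held in 6 of 6 repeats without 1 library, and *DTX4* in 2 of 6 (adjusted p up to 0.132).

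For each member called at least once, the other genes with the most similar profile were found by Pearson r of log2 CPM over the 9 libraries. These are descriptions with no p, chosen as the highest of all genes tested, and points share library and condition. *CLOCK* was most like *TBC1D16* (r = 0.986) and *SEC16A* (0.980), *CRY1* most like *ANXA3* (0.971) and *CDH2* (0.968), and *CRY2* most like *NBPF8* (0.986) and *ARHGEF11* (0.972). *BHLHE40* paired with ENSG00000259992 (0.989), which averaged 0 CPM in attached cells, 0.45 in suspended cells and 0.66 with AT0174, and with *EHF* (0.984), at 276.3, 312.2 and 311.1 CPM. *BHLHE41* paired with *IQCG* (0.990), at 13.4, 11.8 and 11.9 CPM, and with *CCR2* (0.981), at 0.44, 0.10 and 0.13 CPM. ENSG00000259992 in attached cells and *CCR2* in both suspended conditions had few or no counts. For these genes r cannot tell a graded likeness from a step between almost no counts and a low level.

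All members but *CRY2* share exon bases with a gene on the opposite strand. Whether reads were counted by strand is not given in the sources used here. *NR1D1* shares 473 bases with *THRA* (655 to 869 counts per library), *DBP* 661 with *SPHK2* (2354 to 2849 counts) and *CLOCK* 76 with *TMEM165* (1903 to 2793 counts). *BHLHE40* shares 451 bases with *BHLHE40-AS1*, which had only 16 to 48 counts beside 3722 to 6182 for *BHLHE40*. *BHLHE41* shares 162 with *SSPN*, whose 24 to 49 counts are not small beside its own. *ARNTL* shares 421 with ENSG00000290083, for which no counts are listed. *PER3* shares 868 with *UTS2* (at most 5 counts) and 482 with ENSG00000236266 (at most 6). *PER2* shares 188 with ENSG00000225057 (at most 1 count) and *CRY1* 94 with ENSG00000257548 (0 counts). In bulk RNA, fewer cells with a transcript and less of it per cell cannot be told apart, which holds for each difference above.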

How the data were processed

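Polyadenylated RNA of 9 cultures was sequenced as paired reads by the authors, who processed them with nf-core/rnaseq. The submitters' processing notes name Cutadapt 3.4, Trim Galore 0.6.7, STAR 2.7.9a and Salmon 1.10.1 on GRCh38, and the study's methods name the Ensembl annotation. The deposited gene table holds the authors' estimated counts from Salmon, added up per gene and not normalized. The deposited TPM values, which Salmon scales to transcript length and depth, were added up per gene here. The strand setting is not given in the sources used here.

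Estimated counts were rounded to whole numbers, filtered with filterByExpr and scaled by TMM in edgeR 4.0.16 (R 4.3.3). All 9 libraries entered 1 quasi-likelihood fit with condition as its only term, and p-values were adjusted by Benjamini–Hochberg over 15528 genes at a threshold of 0.05. Standard errors are the log2 fold change over the square root of F, and intervals use the matching t quantile. The p-values set each difference against the spread between these cultures of 1 cell line. That spread was estimated over all 9 libraries and drawn toward that of other genes. The script was tested on simulated data. Totals of 36649997 to 48019126 counts put 3 counts, the limit that a count of 0 allows, at 0.0625 to 0.0819 CPM, which covers counting error only. Gene positions came from GENCODE release 44 and promoters from RefSeq, both on GRCh38. Proteins of the paralogs were not analysed here. Some cell type markers are not reported here.

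The members and lists were chosen with earlier results of these data known. Named were the 10 members, genes of the 3 lists past the threshold in any comparison, the paralogs *PER1*, *NPAS2*, *ARNTL2* and *NR1D2*, the 2 genes most alike each called member, genes overlapping a member's exons, and transcripts with at least 10% of a member's TPM. Alternatives were DESeq2 1.42.0, its size factors, limma-voom (limma 3.58.1), other filters on low counts, the replicate block, counts rebuilt from TPM, only the 6 libraries compared and leaving out each library. Counting protein-coding transcripts only was chosen after seeing the data.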

Additional observations from a re-analysis of the deposited data

How the results depend on the processing

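Over 15 alternatives for each member in each of the 3 comparisons, 418 values kept their direction and their side of the threshold, 14 lost and 5 gained a call, and 13 reversed. The reported fit called 3, 0 and 4 members, so most of the 418 are changes that stayed uncalled. With suspension *CLOCK* lost the call in 7 of 15, *BHLHE41* in 1 and *BHLHE40* in 0. Against attached cells *CRY2* and *BHLHE41* each lost it in 3 of 15, and *BHLHE40* and *CRY1* in 0. For the called genes of the other lists, 222 values kept their call, 78 lost it and 0 reversed. Among all genes, calls with suspension numbered 3297 and went to 1710 with counts rebuilt from TPM, 2076 with protein-coding transcripts only and 1935 to 2693 without 1 library. With AT0174 in suspension, 121 became 499 with no filter on low counts, 35 with counts rebuilt from TPM, 214 with DESeq2 and 63 to 86 without 1 library. AT0174 against attached cells had 3724, which went to 2059 with counts rebuilt from TPM and 2239 to 3276 without 1 library. The clock members called without 1 library numbered 2 to 3 with suspension, 0 to 0 with AT0174 in suspension and 2 to 5 against attached cells, with 2 when AT0174 replicate 1 was left out. Over the other clock lists, calls with suspension (7) went to 11 with no filter, 4 with counts rebuilt from TPM and 4 to 7 without 1 library, with 4 when attached replicate 3 was left out. Those with AT0174 in suspension (1) went to 3 with no filter, 0 with counts rebuilt from TPM and 0 to 1 without 1 library, and those against attached cells (12) to 5 with counts rebuilt from TPM, 4 with protein-coding transcripts only and 6 to 10 without 1 library. Fewer libraries lower the power of each repeat, but the calls also differed by the library left out. With suspension they numbered 1935 without attached replicate 3 and 2693 without attached replicate 1. The cause of these and of the other shifts was not tested.

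Each reversed value belonged to a change that was not called in the reported fit. On the log2 scale *PER2* with suspension was at −0.072 to 0.002 without 1 library, the last without attached replicate 3. With AT0174 in suspension, *ARNTL* was at 0.22 with counts rebuilt from TPM, *PER3* at −0.056 to 0.012 without 1 library (0.012 without AT0174 replicate 2) and *BHLHE41* at −0.021 with protein-coding transcripts only. Against attached cells, *ARNTL* was at 0.30 with counts rebuilt from TPM, 0.35 with protein-coding transcripts only and −0.089 to 0.005 without 1 library (0.005 without attached replicate 1). There *PER3* was at −0.012 to 0.054 (−0.012 without AT0174 replicate 3), *DBP* at −0.024 to 0.080 (−0.024 without attached replicate 1) and at −0.085 with counts rebuilt from TPM. *NR1D1* was at −0.092 to 0.135, with −0.092, −0.005 and −0.040 without attached replicate 1 and AT0174 replicates 2 and 3.

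With the replicate number as a block, 3250 genes were called with suspension, 146 with AT0174 in suspension and 3677 against attached cells, and the members called stayed at 3, 0 and 4. The sources used here do not say that the numbers pair the libraries. Deviations from the group means correlated at −0.065 to 0.053 between libraries with the same number and at −0.086 to 0.089 between others. These values show no shared effect of the number over all genes, but cannot tell whether cultures with the same number were set up together.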
